A study of Mus musculus with 4 samples.

Results

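The retinoid metabolism and binding genes described here are the 9 listed symbols Rbp4, Stra6, Dhrs3, Aldh1a1, Aldh1a2, Aldh1a3, Crabp1, Crabp2 and Cyp26a1, out of 27998 genes in the deposited tables. They were taken by symbol, with no measured value in the rule, and each matched a single protein-coding gene; coordinates are those of GRCm38 (mm10) annotation. The genes were followed through single cells of 2 pancreatic tumors from KPC mice (carrying Trp53LSL-R172H/+ and Pdx1-Cre, background C57BL/6J). Each tumor gave a sorted CAF library (cancer-associated fibroblasts, gated as DAPI-CD45-CD31-EpCAM-PDPN+) and an all live library (every DAPI- cell), so that 4 libraries form 2 groups of 2. All 4 libraries come from mice with the mutant Trp53 allele, which Pdx1-Cre switches on in cells of the pancreatic epithelial lineage, and no pancreas without tumor was analysed here. Libraries that share a number come from the same tumor.

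Vitamin A travels in blood as retinol bound to the carrier RBP4 and enters cells through the receptor STRA6. Inside the cell retinol is oxidised to retinaldehyde and, by the retinaldehyde dehydrogenases ALDH1A1, ALDH1A2 and ALDH1A3, irreversibly on to retinoic acid, while DHRS3 returns retinaldehyde to retinol. Retinoic acid is carried by CRABP1 and CRABP2, acts through nuclear receptors, and is cleared by CYP26A1, whose own gene is a textbook target of retinoic acid. In the pancreas, stellate cells are the resident store of retinoids and are known to give rise to fibroblasts of tumors.

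The sorted CAF libraries held 1386 and 1210 cells after filtering, and the all live libraries held 1903 and 3333. Median depth per barcode was 13764 and 10083.5 UMIs (transcript molecules counted once each) in the sorted CAF libraries, against 10744.5 and 3287 in the all live libraries, and library pairs shared 4 to 6 cell barcodes. Cells were grouped into classes with the 9 genes left out of the clustering, and each class was named, as "-like", from marker genes. Fibroblast-like cells made up 12.6% and 72.3% of the sorted CAF libraries, against 7.30% and 3.45% of the all live libraries. The library labelled sorted CAF 1 was 76.2% ductal epithelial-like (called ductal-like below), although its gate excludes EpCAM+ cells. Macrophage or monocyte-like cells are called macrophage-like. Different clusters held most of a class in each tumor: ductal-like cells fell in clusters 0 to 4 in tumor 1 and mostly in cluster 10 in tumor 2, and fibroblast-like cells fell mostly in cluster 6 in tumor 1 and in clusters 7 and 8 in tumor 2. Levels are given as CPM, UMIs of a gene scaled to a common total of UMIs, here those of the class in a library or tumor. UMI counts from the 3' end do not rank genes against each other, so each gene is compared only with itself.

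Promoter windows of 300 bases around the listed starts were read from RefSeq (GRCm38.p6), where 7 of the 9 genes had at least 1 entry and 14 windows in all. The windows of Cyp26a1, Aldh1a1 and Aldh1a2 are shown because these genes carry the differences among fibroblast-like cells described below. Cyp26a1 lies at chr19:37697558-37697857 on the plus strand. Its capitals mark a repeat of the retinoic acid receptor half-site AGTTCA with 5 bases between the copies, which reads on the opposite strand, and a TATAAA run. In the letters shown the repeat begins 32 bases before the listed start, while the TATAAA run lies after that start.
Cyp26a1: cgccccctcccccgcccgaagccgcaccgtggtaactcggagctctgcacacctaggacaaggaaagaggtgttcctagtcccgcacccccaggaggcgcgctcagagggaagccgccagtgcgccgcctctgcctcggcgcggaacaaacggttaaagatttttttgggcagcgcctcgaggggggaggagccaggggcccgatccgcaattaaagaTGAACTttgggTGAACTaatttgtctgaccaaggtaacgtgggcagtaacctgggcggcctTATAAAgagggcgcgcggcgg
Aldh1a1, chr19:20492333-20492632, plus strand: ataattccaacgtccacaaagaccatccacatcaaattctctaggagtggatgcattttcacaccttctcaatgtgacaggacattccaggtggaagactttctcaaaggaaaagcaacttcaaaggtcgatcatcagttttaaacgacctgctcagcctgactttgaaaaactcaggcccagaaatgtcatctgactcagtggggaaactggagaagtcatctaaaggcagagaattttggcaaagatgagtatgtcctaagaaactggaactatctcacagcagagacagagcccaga
Aldh1a2, chr9:71215539-71215838, plus strand: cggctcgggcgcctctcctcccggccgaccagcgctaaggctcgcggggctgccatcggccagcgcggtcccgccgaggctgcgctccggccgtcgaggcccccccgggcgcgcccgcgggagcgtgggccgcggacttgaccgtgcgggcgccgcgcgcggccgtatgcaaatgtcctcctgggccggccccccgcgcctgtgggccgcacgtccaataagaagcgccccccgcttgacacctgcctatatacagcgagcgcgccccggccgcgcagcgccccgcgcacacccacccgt
The direct repeat was searched on both strands as any pair of half-sites with 5 bases between them, where a half-site could read AGGTCA (the consensus), AGTTCA (the form found here), GGGTCA (a known variant) or GGTTCA (the last form searched). It was found in 1 of the 14 windows, that of Cyp26a1, where it overlaps no TATAAA, and in 0.0974% of 32851 promoter windows of the same length. A TATAAA run was present in 13.6% of all windows. The Aldh1a2 window had a GC content of 78.0% with 50 CpG, that of Cyp26a1 62.3% with 26 CpG and the shown window of Aldh1a1 43.3% with 3 CpG, against medians of 52.7% and 7 CpG over all windows. A second Aldh1a1 window, chr19:20601718-20602017, is not shown and had a GC content of 47.0% with 1 CpG. The Aldh1a1 and Aldh1a2 windows held neither repeat nor TATAAA, which says only that these letters are not in these stretches.

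**Figure D1:**
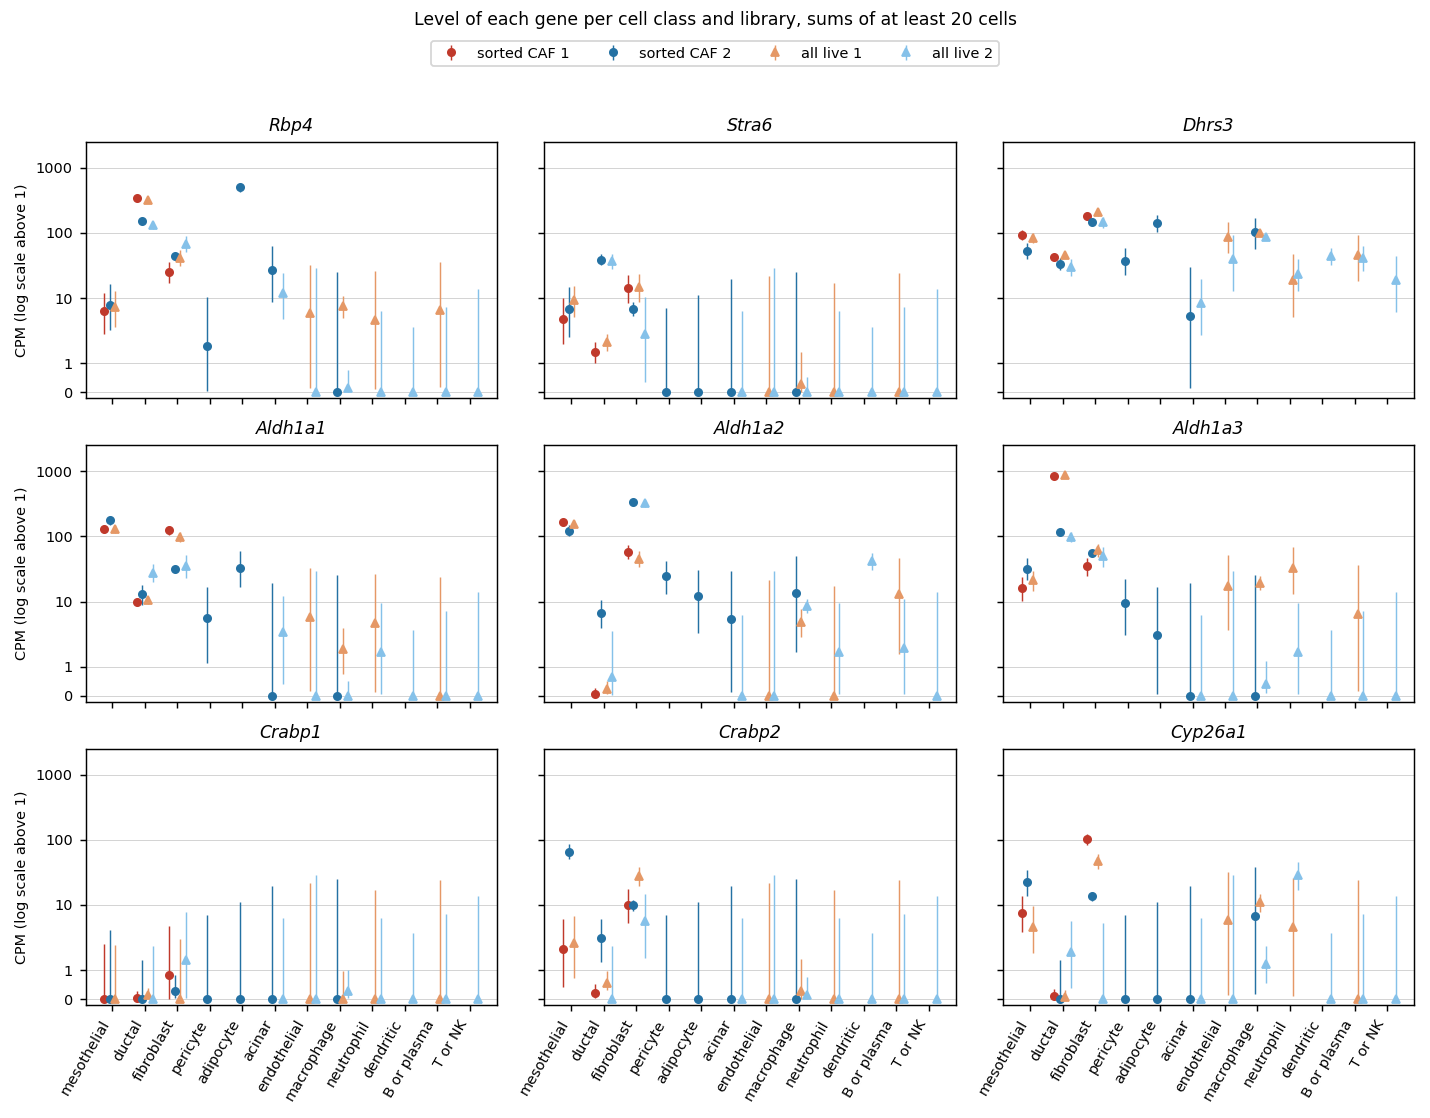
Level of each of the 9 genes (CPM, log scale above 1, linear below) in each cell class, 1 point per library with at least 20 cells of the class; lines are 95% Poisson intervals. Aldh1a3 and Rbp4 stand highest in ductal-like cells of tumor 1 and, for Rbp4, in adipocyte-like cells of sorted CAF 2, Aldh1a1 and Aldh1a2 in mesothelial-like and fibroblast-like cells, and Cyp26a1 in fibroblast-like cells of tumor 1.

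Rbp4 (ENSMUSG00000024990, chr19:38116629-38125281, minus strand), the retinol carrier of plasma, was carried mostly by ductal-like cells in tumor 1 and, with both libraries pooled, by several classes in tumor 2. Mesothelial-like cells had 6.24 and 7.94 CPM in the sorted CAF libraries, and 7.24 and 0 CPM in the all live libraries, where the last value rests on 12 cells and allows up to 28.3 CPM. In ductal-like cells it reached 343 and 153 CPM in sorted CAF 1 and 2, and 316 and 130 CPM in all live 1 and 2. In fibroblast-like cells the levels were 25.3 and 44.5 CPM in sorted CAF 1 and 2, and 41.7 and 67.7 CPM in all live 1 and 2, so every ductal-like library lay above every fibroblast-like one. The highest class sum came from adipocyte-like cells: 27 such cells in sorted CAF 2 held 165 Rbp4 UMIs (499 CPM), and 81.5% of them had at least 1. Tumor 1 gave too few adipocyte-like cells for a sum, since its sorted CAF library held 3. Ductal-like cells carried 98.8% of all Rbp4 UMIs in tumor 1 and 45.6% in tumor 2, where fibroblast-like cells carried 40.0% and adipocyte-like cells 12.8%. These shares pool the sorted CAF and the all live library of a tumor, and so depend on which cells were sorted. In all live 2 alone, ductal-like cells held 203 of the 260 Rbp4 UMIs and fibroblast-like cells 48. A single cell held 85 of the 260.

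Stra6 (ENSMUSG00000032327, chr9:58063788-58153996, plus strand), the cell-surface receptor for RBP4-bound retinol, differed between the tumors in ductal-like cells. Ductal-like cells of tumor 2 had 38.9 CPM in sorted CAF 2 and 37.1 CPM in all live 2, while those of tumor 1 had 1.5 CPM in sorted CAF 1 and 2.09 CPM in all live 1. Cluster 10, which holds most ductal-like cells of tumor 2 and is led by Wfdc18, Gkn3 and Agr2, had 40.7 CPM in sorted CAF 2 and 39.0 CPM in all live 2. The 31 cells of the same cluster from all live 1 had no Stra6 UMI. After thinning every cell to 3000 UMIs, 10.2% and 7.05% of ductal-like cells of sorted CAF 2 and all live 2 had a Stra6 UMI (unthinned 35.2% and 20.3%), against 0.473% and 0.572% in sorted CAF 1 and all live 1 (unthinned 2.56% and 3.91%). Macrophage-like cells, a class that should lack the gene, showed it in 0.202% of cells in all live 1 and in none of 1834 in all live 2, at median depths of 6743 and 3385 UMIs against 16844 and 7355 in ductal-like cells of sorted CAF 2 and all live 2. In fibroblast-like cells Stra6 stood at 14.3 and 6.88 CPM in sorted CAF 1 and 2, and at 14.7 and 2.82 CPM in all live 1 and 2.

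Dhrs3 (ENSMUSG00000066026, chr4:144892827-144928209, plus strand), which reduces retinaldehyde back to retinol, was the gene of the set seen in most cells, 2981 of 7832, and was highest in fibroblast-like cells. Mesothelial-like cells had 92.2 and 53.3 CPM in sorted CAF 1 and 2, and 84.3 and 18.9 CPM in all live 1 and 2. Ductal-like cells had 42.2 and 33.8 CPM in the sorted CAF libraries, and 45.0 and 30.1 CPM in the all live libraries. Fibroblast-like cells stood at 183 and 144 CPM in sorted CAF 1 and 2 and at 209 and 145 CPM in all live 1 and 2, each above every value of the other two. Among leukocytes, macrophage-like cells had 98.0 CPM in all live 1 and 86.6 CPM in all live 2, and neutrophil-like cells averaged 21.4 ± 3.82 CPM (SD, n = 2 tumors).

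The 3 retinaldehyde dehydrogenases were highest in different classes. Aldh1a1 (ENSMUSG00000053279, chr19:20492715-20643465, plus strand) was highest in mesothelial-like cells, with 130 and 176 CPM in sorted CAF 1 and 2, and 129 and 113 CPM in all live 1 and 2. Per tumor, mesothelial-like cells averaged 149 ± 28.3 CPM (SD, n = 2), with both tumor sums above the next class, fibroblast-like cells, although the 113 CPM of all live 2 lay below the 123 CPM of fibroblast-like cells in sorted CAF 1. Ductal-like cells had 10.0 and 13.0 CPM in the sorted CAF libraries, and 10.4 and 27.5 CPM in the all live libraries. Fibroblast-like cells taken as a whole split by tumor, with 123 CPM in sorted CAF 1 and 98.9 CPM in all live 1. Those of tumor 2 had 31.6 CPM in sorted CAF 2 and 35.3 CPM in all live 2. Of these cells, 190 of tumor 1 and 8 of tumor 2 fell in the Gpnmb and Cpxm2 subcluster described below. That subcluster had 178 CPM in tumor 1, and its part in the split was not tested. Macrophage-like cells were near 0, with 1.88 CPM in all live 1 and no UMI in all live 2.

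Aldh1a2 (ENSMUSG00000013584, chr9:71215789-71296243, plus strand), known as the main retinoic acid synthase of embryonic mesoderm, showed the opposite split among fibroblast-like cells. Mesothelial-like cells kept a like level in both tumors, 163 and 121 CPM in sorted CAF 1 and 2, and 154 and 123 CPM in all live 1 and 2. In ductal-like cells thinned to 3000 UMIs no Aldh1a2 UMI was left in any library, and the unthinned share of cells with a UMI was 10.9% in sorted CAF 2 and 0.581% or less in the other libraries. In fibroblast-like cells the gene stood at 58.1 CPM in sorted CAF 1 and 45.0 CPM in all live 1, against 333 CPM in sorted CAF 2 and 319 CPM in all live 2. Both fractions of a tumor thus lay close together and the tumors did not overlap. Thinned the same way, 41.7% and 47.3% of fibroblast-like cells of sorted CAF 2 and all live 2 had an Aldh1a2 UMI, against 13.2% and 11.5% in sorted CAF 1 and all live 1. Unthinned, the shares were 67.7% and 53.9% in tumor 2, and 25.3% and 21.6% in tumor 1, at median depths of 10528 and 5273 UMIs in tumor 2 and of 6069 and 7136 UMIs in tumor 1. With both libraries of a tumor pooled, mesothelial-like cells carried 74.4% of the Aldh1a2 UMIs of tumor 1 and fibroblast-like cells 19.7%, whereas fibroblast-like cells carried 93.4% in tumor 2. These shares depend on which cells were sorted. In all live 1 alone, mesothelial-like cells held 234 of 320 Aldh1a2 UMIs and fibroblast-like cells 55. In all live 2 alone, fibroblast-like cells held 226 of 347.

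Aldh1a3 (ENSMUSG00000015134, chr7:66390890-66427517, minus strand), the dehydrogenase best known from epithelia and from tumors derived from them, was highest in ductal-like cells, at levels that differed between the tumors. Ductal-like cells had 845 CPM in sorted CAF 1 and 868 CPM in all live 1, against 118 CPM in sorted CAF 2 and 97.9 CPM in all live 2. Within tumor 1 the 5 main ductal-like clusters ranged from 632 to 1010 CPM. Thinned to 3000 UMIs, 75.4% of ductal-like cells in sorted CAF 1 and 74.8% in all live 1 had an Aldh1a3 UMI (unthinned 92.1% and 92.9%), against 17.2% and 16% in sorted CAF 2 and all live 2 (unthinned 43.0% and 29.7%). Fibroblast-like cells had 34.5 and 55.7 CPM in sorted CAF 1 and 2, and 61.3 and 49.4 CPM in all live 1 and 2, and thus did not separate by tumor.

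Low values of Aldh1a3 and Rbp4 outside the epithelium were set beside those of macrophage-like cells, since free RNA in a droplet gives UMIs to cells that do not make them. In all live 1, 22.3% of fibroblast-like cells had an Aldh1a3 UMI (median depth 7136 UMIs), against 9.29% of macrophage-like cells (median depth 6743), whose level was 19.3 CPM. Thinned to 3000 UMIs, the shares were 11.5% of fibroblast-like and 4.04% of macrophage-like cells. In all live 2 fibroblast-like cells had 49.4 CPM, against 0.417 CPM in macrophage-like cells. The ratio of Aldh1a3 to Rbp4 UMIs in all live 1 was 2.74 in ductal-like, 1.47 in fibroblast-like and 2.57 in macrophage-like cells. In tumor 2 it was 0.769 and 0.754 in ductal-like cells of sorted CAF 2 and all live 2, and 1.25 and 0.729 in fibroblast-like cells. The 13 ductal markers summed to 280 and 44.6 CPM in fibroblast-like cells of sorted CAF 1 and 2, and to 829 and 42.3 CPM in those of all live 1 and 2. Of the markers 12 were seen in sorted CAF 1 (Cldn4 at 0), sorted CAF 2 (Elf3 at 0) and all live 1 (Cldn3 at 0), and 7 in all live 2 (Krt18, Krt19, Krt7, Cdh1, Cldn3 and Cldn7 at 0), and their part in the fibroblast-like levels of Aldh1a3 and Rbp4 was not tested.

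The binding proteins gave few UMIs. Crabp1 (ENSMUSG00000032291, chr9:54764748-54773110, plus strand) had 11 UMIs in 11 of 7832 cells, 5 of them in fibroblast-like cells, and was at or under 0.415 CPM in every class sum per tumor; no difference was detectable at this depth. Crabp2 (ENSMUSG00000004885, chr3:87948666-87953376, plus strand), which hands retinoic acid to its nuclear receptor, had 247 UMIs in 87 cells. The highest value was 65.8 CPM in mesothelial-like cells of sorted CAF 2, against 2.08 CPM in those of sorted CAF 1 and 2.63 CPM in those of all live 1. That sum rested on few cells, since 35 of its 58 UMIs came from 1 cell. In fibroblast-like cells Crabp2 stood at 10.1 and 9.89 CPM in sorted CAF 1 and 2, and at 27.8 and 5.65 CPM in all live 1 and 2, where 21 of the 34 UMIs of all live 1 came from 1 cell.

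Cyp26a1 (ENSMUSG00000024987, chr19:37697798-37701536, plus strand), the cytochrome P450 that degrades retinoic acid, came from few cells. Of its 436 UMIs, fibroblast-like cells carried 73.3% in tumor 1 and 74.1% in tumor 2, with both libraries of a tumor pooled. In the all live libraries alone they held 57 of 109 UMIs in tumor 1 and 0 of 29 in tumor 2. Mesothelial-like cells had 7.63 and 22.7 CPM in the sorted CAF libraries, and 4.61 and 0 CPM in the all live libraries. Ductal-like cells had 2, 0, 2 and 3 UMIs in sorted CAF 1, sorted CAF 2, all live 1 and all live 2. The fibroblast-like levels were 102 and 13.5 CPM in sorted CAF 1 and 2, and 46.6 and 0 CPM in all live 1 and 2, where the 0 allows up to 4.23 CPM. Only 43 of 1303 fibroblast-like cells had a UMI and 6 of them held 50% of the 321 UMIs, the highest cell carrying 50.

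Pericyte-like cells, the contractile mural cells of small vessels, had few UMIs of the 9 genes. The 59 cells of sorted CAF 2 had 20 UMIs of Dhrs3 (37.4 CPM) and 13 of Aldh1a2 (24.3 CPM), 5 or fewer of Aldh1a3, Aldh1a1 and Rbp4, and none of Stra6, Crabp1, Crabp2 or Cyp26a1. A count of 0 there allows up to 5.62 CPM. The 19 pericyte-like cells of all live 2 had no UMI of any of the 9 genes, which allows up to 30.3 CPM, and all live 1 held no such cell. The 4 pericyte-like cells of sorted CAF 1 had 5 UMIs of Aldh1a2 and 1 of Aldh1a3, and a count of 0 there allows up to 89.3 CPM.

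The comparison of the sorted CAF with the all live fraction asks what the sort enriched. Over whole libraries, 0 of 8 tested genes of the set passed edgeR's quasi-likelihood test at an adjusted p of 0.05, as did 0 of all 14031 genes tested, a background of 0% (539 genes at an unadjusted p under 0.05). DESeq2 called 476 of 15869 genes, 3.0%, and none of the set. With the tumor as a replicate block edgeR again called 0 genes (1011 at an unadjusted p under 0.05). In tumor 2 all but Crabp1 were higher in the sorted CAF library, from 1.69 times for Dhrs3 (95% interval 1.56 to 1.83, counting error only) to 31.1 times for Crabp2 (13.1 to 97). In tumor 1 the ratios of the sorted CAF to the all live library ran from 0.486 for Crabp2 to 1.63 for Cyp26a1. Aldh1a2 stood at 13.7 and 240 CPM in sorted CAF 1 and 2, against 10.6 and 24.9 CPM in all live 1 and 2, and its log2 fold change was 2.72 ± 1.4 (SE, edgeR quasi-likelihood adjusted p = 1.0). In such whole-library values, fewer cells of a class and less RNA per cell cannot be told apart. The median log2 fold change of the 8 genes was 1.02, against 0.05 over all genes.

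**Figure D2:**
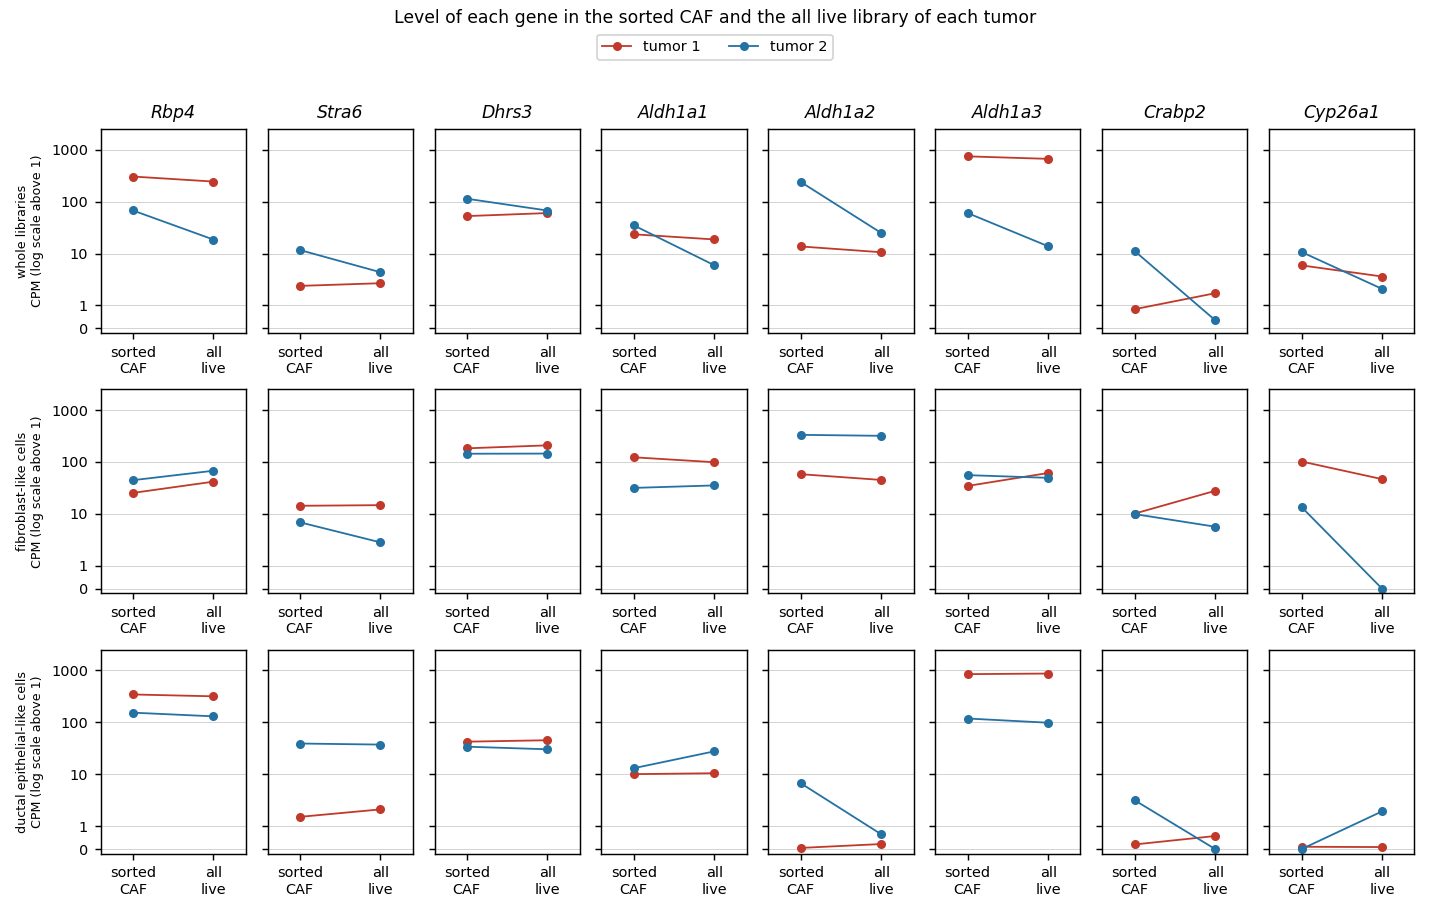
Level of 8 of the genes (CPM, log scale above 1, linear below) in the sorted CAF (left) and the all live library (right) of each tumor, joined by a line, for whole libraries (top), fibroblast-like cells (middle) and ductal-like cells (bottom). Aldh1a2 in whole libraries of tumor 2 stands at 240 CPM in sorted CAF and 24.9 CPM in all live, and at 333 and 319 CPM once only fibroblast-like cells are counted.

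The same comparison was made within a class. In fibroblast-like cells 0 of 8 genes of the set passed, against 0% of the 8660 genes tested (68 at an unadjusted p under 0.05; DESeq2 22 of 10906 genes, 0.202%, and none of the set). The Aldh1a2 ratio of sorted CAF to all live cells was 1.29 in tumor 1 (95% interval 0.893 to 1.88) and 1.04 in tumor 2 (0.912 to 1.20), with a log2 fold change of 0.12 ± 0.99 (SE). Rbp4 was lower in the sorted fraction in both tumors, with ratios of 0.606 (0.373 to 0.969) and 0.656 (0.487 to 0.903) and a log2 fold change of -0.59 ± 0.42 (SE; edgeR adjusted p = 1.0).
The tumor as a replicate block brought 86 genes, 0.993%, past the threshold (30 higher and 56 lower). They included Cyp26a1 at 1.36 ± 0.29 (SE, adjusted p = 0.000508, 1 residual degree of freedom), against 1.07 ± 1.20 without the block. Cyp26a1 had 121 and 143 UMIs in fibroblast-like cells of sorted CAF 1 and 2, against 57 and 0 in those of all live 1 and 2, and the fold change was -0.81 without sorted CAF 1 and passed without all live 1, where the all live group is at 0. In ductal-like cells 0 of 5 tested genes of the set passed, against 0% of 12256 genes (97 at an unadjusted p under 0.05; DESeq2 33 genes, 0.227%; with the block 118 genes, 0.963%, and none of the set in either). The smallest two-sided p of an exact permutation test of 2 against 2 libraries is 0.333, so no such test was used for single genes.

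Classes were compared by sums per tumor, with 2 tumors as replicates and all named classes in 1 fit. Against fibroblast-like cells, ductal-like cells were lower in Dhrs3, Aldh1a2 and Cyp26a1: 3 of the 8 tested genes passed, with a background of 20.7% of 12065 genes (935 higher and 1565 lower). Dhrs3 stood at 43.7 and 32.4 CPM in ductal-like cells of tumors 1 and 2, against 196 and 144 CPM in fibroblast-like cells. The classes did not overlap and the ratio was alike in both tumors, 0.223 (95% interval 0.202 to 0.247) and 0.225 (0.187 to 0.268), for a log2 fold change of -2.13 ± 0.41 (SE, edgeR adjusted p = 0.00311). Aldh1a2 stood at 0.140 and 4.38 CPM in ductal-like cells, against 51.4 and 332 CPM in fibroblast-like cells, a log2 fold change of -6.99 ± 1.38 (adjusted p = 0.00400). Cyp26a1 stood at 0.0931 and 0.730 CPM in ductal-like cells, from 4 and 3 UMIs, against 73.8 and 12.6 CPM in fibroblast-like cells, ratios of 0.00126 (0.00034 to 0.00328) and 0.0578 (0.0118 to 0.172). Its log2 fold change was -7.47 ± 1.44 (adjusted p = 0.00353), and these 3 calls held in every alternative that was run.

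The remaining genes did not pass in that comparison. Aldh1a3 had 857 and 110 CPM in ductal-like cells of tumors 1 and 2, against 48.1 and 55.3 CPM in fibroblast-like cells. The ratio was thus 17.8 in tumor 1 and 2.00 in tumor 2, and the log2 fold change of 3.29 ± 1.33 had an edgeR adjusted p of 0.105. Rbp4 had 328 and 144 CPM in ductal-like cells, against 33.6 and 45.9 CPM in fibroblast-like cells (log2 fold change 2.59 ± 0.95, adjusted p = 0.0759). Aldh1a1 had 10.2 and 18.5 CPM in ductal-like cells, against 111 and 31.8 CPM in fibroblast-like cells (-2.32 ± 0.80, adjusted p = 0.0630). Crabp2 had 0.396 and 1.95 CPM, against 19.1 and 9.62 CPM in fibroblast-like cells (-3.96 ± 1.31, adjusted p = 0.0604). With the tumor as a replicate block 6 of the 8 genes passed, beside 28.3% of all genes. The block added Rbp4 (2.21 ± 0.74, adjusted p = 0.0423), Aldh1a1 (-2.15 ± 0.68, adjusted p = 0.0360) and Crabp2 (-4.27 ± 1.15, adjusted p = 0.0218). Without all live 1, 6 genes of the set passed, beside 2182 of all 12161 genes tested. Without all live 2, 6 passed as well, beside 3215 of all 13556 genes tested. Stra6 had opposite directions in the tumors, 1.82 and 38.2 CPM in ductal-like cells against 14.5 and 6.62 CPM in fibroblast-like cells. The median log2 fold change of the 8 genes was -2.22, against -0.01 over all genes.

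**Figure D3:**
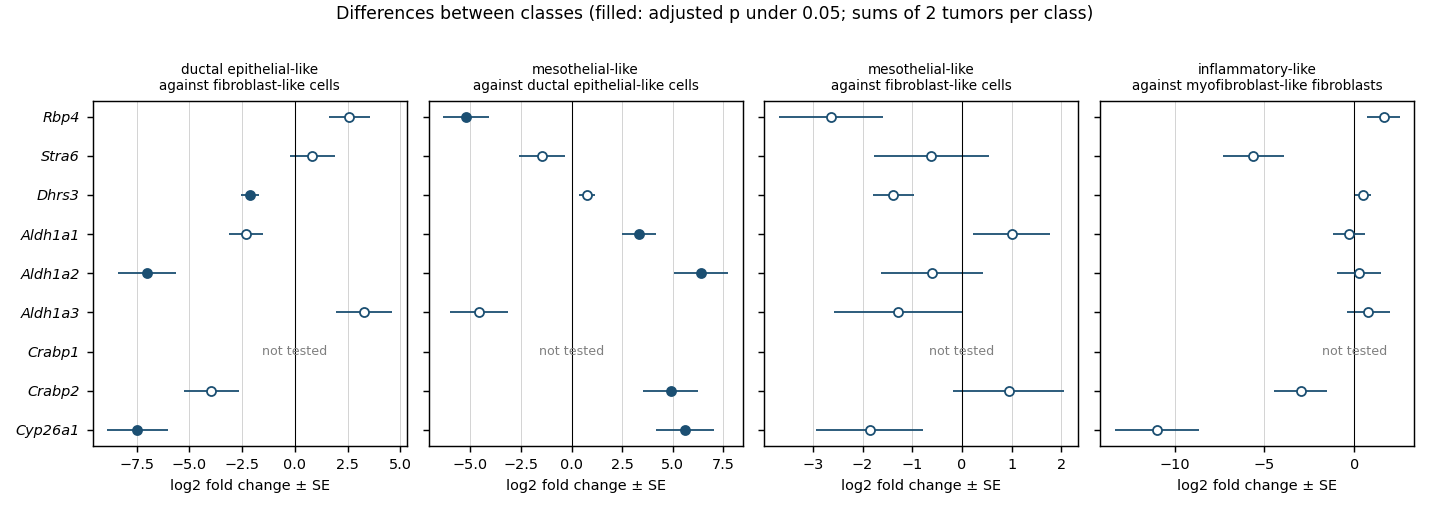
Log2 fold change ± SE of 8 of the genes in 4 comparisons between classes, from sums of 2 tumors per class; filled points passed edgeR's quasi-likelihood test at an adjusted p of 0.05. Filled points are Dhrs3, Aldh1a2 and Cyp26a1 for ductal-like against fibroblast-like cells, and Rbp4, Aldh1a1, Aldh1a2, Crabp2 and Cyp26a1 for mesothelial-like against ductal-like cells; Crabp1 had too few counts to be tested.

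Mesothelial-like cells, the lining of the peritoneal surface, differed from ductal-like cells in 5 of the 8 genes, 4 higher and 1 lower, with a background of 14.6% of 12065 genes (1185 higher and 573 lower). Aldh1a1 had 129 and 169 CPM in mesothelial-like cells of tumors 1 and 2, against 10.2 and 18.5 CPM in ductal-like cells (log2 fold change 3.32 ± 0.83, edgeR adjusted p = 0.0205). Aldh1a2 had 158 and 121 CPM in mesothelial-like cells, against 0.140 and 4.38 CPM in ductal-like cells (6.39 ± 1.35, adjusted p = 0.00863). These 2 of the 3 retinaldehyde dehydrogenases were higher in both tumors, by 12.7 and 9.14 times for Aldh1a1 and by 1130 and 27.7 times for Aldh1a2. Aldh1a3 was lower in mesothelial-like cells of both tumors, as given below. Cyp26a1 had 18 and 20 UMIs (6.08 and 20.2 CPM) in mesothelial-like cells, against 4 and 3 UMIs in ductal-like cells, ratios of 65.3 (21.5 to 265) and 27.7 (8.22 to 146) and a log2 fold change of 5.61 ± 1.44 (adjusted p = 0.0224). Crabp2 had 2.36 and 58.7 CPM in mesothelial-like cells, against 0.396 and 1.95 CPM in ductal-like cells (4.89 ± 1.36, adjusted p = 0.0387), in tumor 2 largely from the cell with 35 UMIs. Its call was lost with doublets kept (adjusted p = 0.0682) and without all live 1 (adjusted p = 0.0872). Rbp4 was lower, with 6.75 and 7.09 CPM in mesothelial-like cells against 328 and 144 CPM in ductal-like cells (-5.23 ± 1.13, adjusted p = 0.00843).
Aldh1a3 had 18.6 and 28.3 CPM in mesothelial-like cells, against 857 and 110 CPM in ductal-like cells. It stood at the threshold, at -4.57 ± 1.43 with an edgeR adjusted p of 0.0508, and passed with the replicate block (-3.76 ± 1.14, adjusted p = 0.0351). Without sorted CAF 2 only Aldh1a2 passed, since tumor 2 then has too few mesothelial-like cells for a sum. The 13 ductal markers summed to 1130 and 1920 CPM in mesothelial-like cells of sorted CAF 1 and 2, and to 1290 and 2110 CPM in those of all live 1 and 2. Of them 12, 10, 11 and 9 were seen in these 4 libraries, with Cldn7 at 0 in sorted CAF 1, sorted CAF 2 and all live 1 and Cldn4, Muc1, Tff1 and Elf3 at 0 in all live 2. Their part in the mesothelial-like levels was not tested.

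Between mesothelial-like and fibroblast-like cells 0 of the 8 genes passed edgeR's quasi-likelihood test, beside 1.11% of all 12065 genes (1055 at an unadjusted p under 0.05, among them Dhrs3 and Rbp4 of the set). Dhrs3 was lower in mesothelial-like cells of both tumors, 88.1 and 49.6 CPM against 196 and 144 CPM in fibroblast-like cells, with a log2 fold change of -1.38 ± 0.41 (SE, adjusted p = 0.159). It passed with the tumor as a replicate block (-1.42 ± 0.31, adjusted p = 0.0282; 2.70% of all genes) and with DESeq2 (-1.36 ± 0.39, adjusted p = 0.0270; 2.20% of all genes). Rbp4 had 6.75 and 7.09 CPM in mesothelial-like cells, against 33.6 and 45.9 CPM in fibroblast-like cells (-2.64 ± 1.05, edgeR adjusted p = 0.404). Aldh1a2 had opposite directions in the tumors: the ratio of mesothelial-like to fibroblast-like cells was 3.08 (95% interval 2.52 to 3.78) for tumor 1, and 0.366 (0.303 to 0.439) for tumor 2. The Aldh1a1 ratio was 1.17 (0.996 to 1.37) for tumor 1 and 5.32 (4.40 to 6.41) for tumor 2, with a log2 fold change of 1.0 ± 0.77. The 10 fibroblast markers were all seen in mesothelial-like cells of every library and summed to 13100 to 18400 CPM there, against 27000 to 37800 CPM in fibroblast-like cells. Their part in these values was not tested.

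Fibroblast-like cells fell into 7 subclusters, which are called here by their leading genes because the names of the states were rebuilt from marker lists. The Cxcl13 and Cxcl12 subcluster (192 cells) and the Sema3c and Cd55 subcluster (138 cells) had 9 and 8 inflammatory markers. The Arg1, Cspg4 and Tnc subcluster (267 cells) had 9 myofibroblast markers, among them Acta2, Tagln and Tnc. The Gpnmb and Cpxm2 subcluster (198 cells, 190 of them from tumor 1) took the myofibroblast name on 3 markers only, Thbs2, Mmp11 and Col12a1. Of the others, 147 cells were cycling and 361 stayed unnamed.

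**Figure D4:**
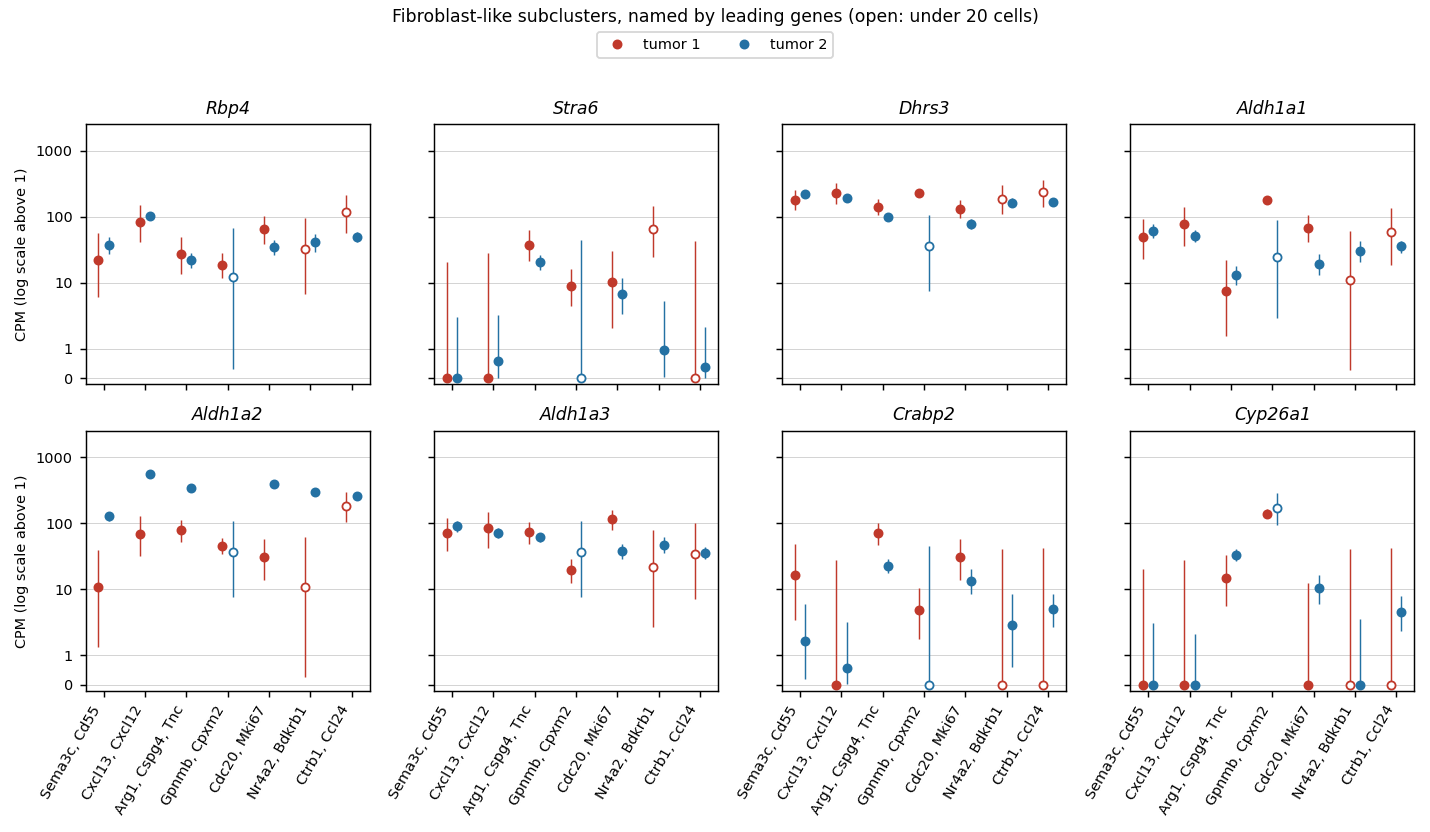
Level of 8 of the genes (CPM, log scale above 1, linear below) in each fibroblast-like subcluster of each tumor, with 95% Poisson intervals; open points rest on fewer than 20 cells. Among points with at least 20 cells, Stra6 and Crabp2 stand highest in the Arg1, Cspg4 and Tnc subcluster in each tumor, Rbp4 in the Cxcl13 subcluster in each tumor, and Cyp26a1 in the Gpnmb and Cpxm2 subcluster of tumor 1. Of the 28 Crabp2 UMIs behind the Arg1, Cspg4 and Tnc point of tumor 1, 1 cell held 21.

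Uptake and carrier genes are given first, and no difference between the states passed edgeR's test, as set out after the values. Stra6 had 1 UMI in all inflammatory-like cells, and stood at 37.7 and 20.3 CPM in the Arg1, Cspg4 and Tnc subcluster of tumors 1 and 2. Summed by state, inflammatory-like cells had 0 and 1 Stra6 UMIs in tumors 1 and 2, against 26 and 61 UMIs (16 and 19.8 CPM) in myofibroblast-like cells. This made the level at least 1.67-fold lower in tumor 1 (against a floor of 3 counts per tumor) and a ratio of 0.0172 for tumor 2 (95% interval 0.000428 to 0.0993). Rbp4 ran the other way in the Cxcl13 subcluster, at 84.1 and 103 CPM against 27.7 and 22.0 CPM in the Arg1, Cspg4 and Tnc subcluster. The Sema3c and Cd55 subcluster, also inflammatory by its markers, had only 22.0 (4 UMIs) and 37.0 CPM, and cycling cells had 64.5 and 34.8 CPM. Summed by state Rbp4 had 48.0 and 75.8 CPM in inflammatory-like cells, against 20.9 and 21.7 CPM in myofibroblast-like cells. The ratios were 2.29 (1.16 to 4.33) and 3.49 (2.64 to 4.65). In tumor 1, 11 of the 15 inflammatory-like UMIs came from the Cxcl13 subcluster. Crabp2 stood at 70.4 and 22.7 CPM in the Arg1, Cspg4 and Tnc subcluster of tumors 1 and 2. The tumor 1 value came from 5 cells with 28 UMIs, of which 1 cell held 21. By state Crabp2 had 9.59 and 1.02 CPM in inflammatory-like cells (3 UMIs in each tumor), against 20.9 and 22.1 CPM in myofibroblast-like cells. The ratios were 0.459 (0.0902 to 1.46) for tumor 1 and 0.0462 (0.0093 to 0.141) for tumor 2. The same cell held 21 of the 34 myofibroblast-like UMIs of tumor 1, so the tumor 1 direction rests largely on it.

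The synthases were read by tumor and by state. Aldh1a2 stood at 68.8 and 562 CPM in the Cxcl13 subcluster of tumors 1 and 2, at 77.9 and 339 CPM in the Arg1, Cspg4 and Tnc subcluster, and at 11 and 128 CPM in the Sema3c and Cd55 subcluster. Each of these 3 subclusters was higher in tumor 2. Aldh1a1 stood at 178 CPM in the Gpnmb and Cpxm2 subcluster of tumor 1. In the Arg1, Cspg4 and Tnc subcluster it had 7.54 and 13.0 CPM in tumors 1 and 2. Both subclusters carry the myofibroblast name, so that a sum by state mixes them. By state Aldh1a1 had 60.7 and 55.1 CPM in inflammatory-like cells, against 136 and 13.3 CPM in myofibroblast-like cells, opposite directions in the tumors. In tumors 1 and 2 Aldh1a1 had 76.4 and 51.0 CPM in the Cxcl13 subcluster and 49.5 and 60.9 CPM in the Sema3c and Cd55 subcluster. Within these and the Arg1, Cspg4 and Tnc subcluster the 95% intervals of the tumors overlapped, from 10, 9 and 3 UMIs in tumor 1. Cycling cells, with 67.9 and 19.5 CPM, went with the split of the whole class. Aldh1a3 had 76.7 and 79.5 CPM in inflammatory-like cells, against 32.6 and 60.7 CPM in myofibroblast-like cells. The Arg1, Cspg4 and Tnc subcluster alone had 72.9 and 61.3 CPM. Dhrs3 had 201 and 204 CPM in inflammatory-like cells of tumors 1 and 2, against 205 and 96.0 CPM in myofibroblast-like cells. In tumor 1 the Gpnmb and Cpxm2 subcluster held 277 of the 333 myofibroblast-like Dhrs3 UMIs, at 225 CPM. In the Arg1, Cspg4 and Tnc subcluster Dhrs3 had 141 CPM in tumor 1 (95% interval 106 to 183, against 155 to 258 in inflammatory-like cells) and 97.7 CPM in tumor 2. Over the subclusters of at least 20 cells in tumor 2 it ran from 78.6 CPM in cycling cells and 97.7 CPM in the Arg1, Cspg4 and Tnc subcluster to 218 CPM in the Sema3c and Cd55 subcluster.

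Between inflammatory-like and myofibroblast-like cells 0 of 8 genes passed edgeR's quasi-likelihood test, as did 0% of 11619 genes (549 at an unadjusted p under 0.05, among them Cyp26a1 and Stra6). DESeq2 called 49 of 9817 genes, 0.499%, among them Cyp26a1, and edgeR with the replicate block 39 genes, 0.336%, and none of the set. Cyp26a1 had no UMI in inflammatory-like cells of either tumor, against 178 and 114 UMIs (109 and 37.0 CPM) in myofibroblast-like cells. The level was thus at least 11.4-fold lower in tumor 1 and at least 36.3-fold lower in tumor 2 against a floor of 3 counts per tumor (edgeR adjusted p = 0.172, DESeq2 adjusted p = 0.0150). The Stra6 adjusted p was 0.495 with edgeR, and DESeq2 gave none. The median log2 fold change of the 8 genes was 0, against -0.05 over all genes.

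Within the fibroblasts Cyp26a1 came from few cells. In the Gpnmb and Cpxm2 subcluster 10 of 112 cells of sorted CAF 1 held 115 UMIs (173 CPM), 3 of 5 cells of sorted CAF 2 held 14 UMIs (215 CPM) and 9 of 78 cells of all live 1 held 57 UMIs (101 CPM). Clustered more finely, 38 cells (25 from sorted CAF 1, 4 from sorted CAF 2 and 9 from all live 1) stood apart, led by Wif1 and Notum, secreted inhibitors of Wnt signalling, and by the imprinted genes H19 and Mest. In tumor 1 these cells held 169 of the 178 fibroblast-like Cyp26a1 UMIs, at 624 CPM in sorted CAF 1 and 683 CPM in all live 1, and 47.1% of them had a UMI. The neighbouring 165 cells, led by Gpnmb and Chchd10, had 5.83 CPM in tumor 1. In tumor 2 the same subcluster held 14 of 143 UMIs (267 CPM, from 4 cells), while the Igfbp5 and Cspg4 subcluster held 96 (61.3 CPM), in 8 of its 112 sorted CAF 2 cells. Cyp26a1 was left out of the genes used for clustering, whereas Wif1, Notum and H19 were not left out, and the place of all 4 among the leading genes is a description.

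**Figure D5:**
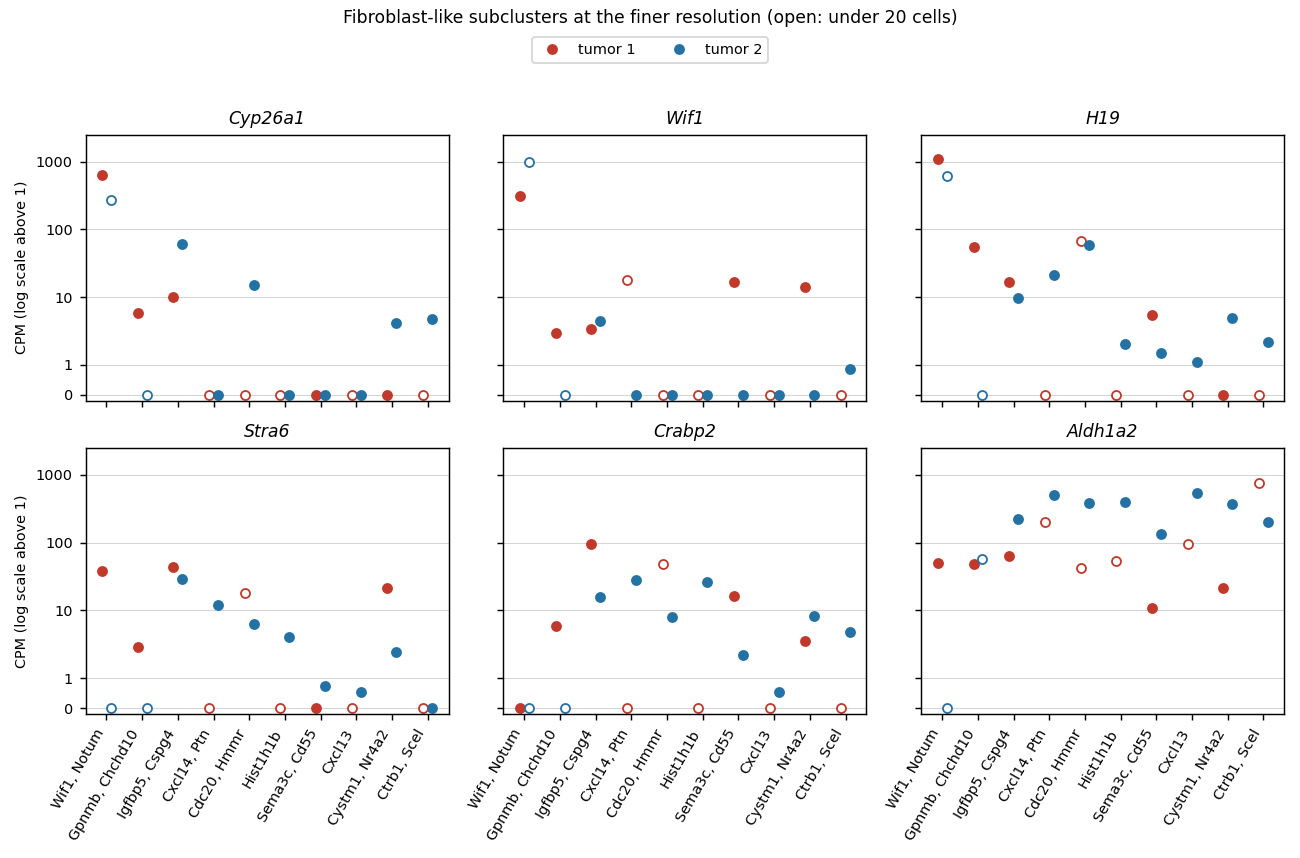
Levels of Cyp26a1, Wif1, H19, Stra6, Crabp2 and Aldh1a2 (CPM, log scale above 1, linear below) in fibroblast-like subclusters at the finer resolution, 1 point per tumor; open points rest on fewer than 20 cells. Cyp26a1 stands at 642 CPM in the Wif1 and Notum subcluster of tumor 1 and at 267 CPM in its 4 cells of tumor 2.

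Cyp26a1 was also read cell by cell beside Wif1 and Notum. These 2 genes were taken from the subcluster that Cyp26a1 helps to lead, so their overlap is a description and not a test. The shares were not thinned to a common depth. In sorted CAF 2, 5 of 8 fibroblast-like cells with a Wif1 UMI had a Cyp26a1 UMI, against 1.96% of cells without Wif1. In all live 1 it was 6 of 9 cells, against 2.31%, and in sorted CAF 1 it was 2 of 9 cells, against 6.06%. Of cells with a Notum UMI, 1 of 6 in sorted CAF 2 had a Cyp26a1 UMI, against 2.42% of cells without Notum. In sorted CAF 1 it was 5 of 12 cells, against 4.32%, and in all live 1 it was 2 of 2, against 5.11%. No cell of all live 2 had any of these transcripts, where 115 fibroblast-like cells were read at a median depth of 5273 UMIs.

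Outside the stroma a few leukocytes carried retinoid genes. Cyp26a1 had 41 UMIs in 21 of 495 macrophage-like cells of all live 1 (11 CPM), 39 of them in a cluster led by Chil3, Mmp12 and Arg1, against 9 UMIs in 1834 cells of all live 2 (1.25 CPM). Neutrophil-like cells of all live 2 had 17 Cyp26a1 UMIs in 10 of 252 cells (28.8 CPM). Aldh1a2, which intestinal dendritic cells are known to use for retinoic acid synthesis, had 42 UMIs in dendritic-like cells of all live 2 (41.6 CPM), 26 of them in 1 cell. In a macrophage-like cluster led by Folr2 and Retnla, all live 2 had 27 Aldh1a2 UMIs (24.9 CPM), and Dhrs3 stood at 225 CPM in all live 1 and 129 CPM in all live 2.

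Other genes of the pathway were read from lists on uptake and storage, carotenoid and retinyl ester use, oxidoreductases, clearance and transport, receptors and cofactors, response genes, and stellate cells. None passed in any comparison of fractions or between the fibroblast states. Against fibroblast-like cells, ductal-like cells were lower in 6 of 13 tested response genes and higher in none (median log2 fold change -2.53, against -0.01 over all genes), beside the 20.7% of all 12065 genes called in this comparison, 1565 of them lower. The named ones were Hoxa5 (-9.10 ± 1.18, edgeR adjusted p = 0.000464), Rarres2 (-8.53 ± 1.28, adjusted p = 0.000929) and Hoxb4 (-7.07 ± 0.95, adjusted p = 0.000453); Hox and chemerin (Rarres2) transcripts are also ordinary markers of mesenchyme. Cyp1b1, a P450 that can act on retinoids, was lower (-7.76 ± 1.03, adjusted p = 0.000670), as was Cygb, a globin of stellate cells (-8.70 ± 1.23, adjusted p = 0.000685). Rbp2, a cellular retinol-binding protein, was higher in ductal-like cells, with 20.2 and 14.6 CPM against 0.415 and 0.265 CPM in fibroblast-like cells (5.74 ± 0.99, adjusted p = 0.00309). Also higher were Akr1b7 (6.49 ± 1.38, adjusted p = 0.00721), whose reads can be split with close paralogs, and the lipid-binding Fabp5 (3.44 ± 1.05, adjusted p = 0.0351), which has many pseudogenes.
Over the other lists, and with the genes here named only after their values were seen, receptors and cofactors gave 1 lower gene of 12 tested, the receptor gene Rarb, which is also on the list of response genes. Uptake and storage gave 1 higher (Rbp2) and 2 lower (Cd36 and Lpl) of 9. The oxidoreductases gave 1 higher (Akr1b7) and 1 lower (Adh1, an alcohol dehydrogenase of retinol) of 12, clearance and transport 1 higher (Fabp5) and 1 lower (Cyp1b1) of 3, and stellate cell genes 2 lower (Cygb and Des) of 5. The 1 tested gene of carotenoid and retinyl ester use did not pass in any comparison of classes.

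Mesothelial-like against ductal-like cells had 7 of 13 response genes higher and none lower (median log2 fold change 3.38, against -0.04 over all genes), beside the 14.6% of all 12065 genes called, 1185 of them higher. Those named were Hoxa5 (10.11 ± 1.21, edgeR adjusted p = 0.000511), Rarres2 (8.48 ± 1.27, adjusted p = 0.00153) and Rarres1 (6.58 ± 1.29, adjusted p = 0.0058). Rarres2 had 254 and 795 CPM in mesothelial-like cells of tumors 1 and 2, against 0.559 and 2.92 CPM in ductal-like cells. Des, the desmin gene of stellate and muscle cells, and Cyp1b1 were higher as well, by 7.62 ± 0.83 (adjusted p = 0.000365) and 6.95 ± 1.0 (adjusted p = 0.00156). Lower were Ttr, the partner of RBP4 in plasma (-7.32 ± 2.04, adjusted p = 0.0398), Akr1b7 (-6.83 ± 1.59, adjusted p = 0.0162), Rbp2 (-3.68 ± 0.94, adjusted p = 0.0275) and Akr1b8 (-3.21 ± 0.96, adjusted p = 0.0413). Ttr had 1.01 and 0 CPM in mesothelial-like cells, against 93.4 and 134 CPM in ductal-like cells. Over the other lists, uptake and storage gave 2 lower of 9, the oxidoreductases 1 higher and 2 lower of 12, clearance and transport 1 higher of 3, receptors and cofactors 1 higher of 12 (Rarb) and stellate cell genes 2 higher of 5.
Between mesothelial-like and fibroblast-like cells 1 gene of all the lists passed, beside 1.11% of all genes. It was Dhrs9, an oxidoreductase of retinol (4.49 ± 0.88, adjusted p = 0.0369), at 8.44 and 11.1 CPM in mesothelial-like cells of tumors 1 and 2. With the replicate block, uptake and storage and the oxidoreductases had 3 genes higher each in ductal-like than in fibroblast-like cells, and the lists gave 4 calls in mesothelial-like against fibroblast-like cells (Dhrs9 and Rarres1 higher, Adh1 and Cygb lower) and 1 between the fibroblast states (Cd36, higher in inflammatory-like cells).

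Over 14 class sums (7 classes in 2 tumors), the genes whose levels ran most like each of the set among 12060 genes were found by Pearson's r of log2(CPM + 10), as a description. Aldh1a3 ran most like Npy (0.945) and next like Rbp4 (0.944), and Rbp4 like Npy (0.968). Aldh1a1 ran most like Mapk8ip1 (0.978), Aldh1a2 like Chl1 (0.976), Stra6 like Cys1 (0.965), Dhrs3 like Rnft1 (0.883) and Cyp26a1 like Kcns3 (0.875). The sums share libraries and depth within a tumor, and Crabp1 and Crabp2 had too few UMIs to be placed.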

How the data were processed

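Single cells of 2 KPC tumors, each sorted into a CAF and an all live fraction, were profiled with 10x Genomics 3' chemistry, per the labels' protocols. Part of the genotype is not reported here. The matrices deposited by the authors hold raw UMI counts, whole numbers for each gene in each barcode. The submitters' processing notes list Cell Ranger 2.0.0, CASAVA 1.4 and mm10. Names of genes and barcodes stand in tables of other text. The rule by which the authors kept barcodes was not stated. Technical replicates named in the design text could not be told apart, so each library is 1 sample, and the listed stain names no EpCAM antibody. Libraries held 14972652 to 30950993 UMIs. 95% intervals (exact Poisson, conditional exact for ratios) and the floor of 3 counts cover counting error only.

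A cell needed 500 detected genes and no more than 10% of UMIs from mitochondria (7984 of 8282 barcodes passed). The doublet caller of scanpy 1.11.5 marked 0.338%, too few to be taken as working, so the highest scores were left out at 0.8% per 1000 barcodes, leaving 7832 cells. Clustering used 2000 variable genes without the 9 genes, the pathway lists, and ribosomal and mitochondrial genes, 30 components, 15 neighbours and Leiden resolution 1 (fibroblast-like cells: 1000 genes, 20 components, 0.5, finer 0.8). Names came from the marker list with most genes that were 2 times higher in a cluster and seen in 20% of its cells, with 3 or more needed; where fewer were found, it was compared list by list with clusters already named otherwise. This second step was set after the clusters, but not the levels of the 9 genes, had been seen. The names are rebuilt and differ in part from other namings of these cells, and 319 cells stayed unnamed. Shares of cells were compared after thinning to 3000 UMIs per cell.

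UMIs were summed per library, or per tumor and class (at least 20 cells), and tested with edgeR 4.0.16 (quasi-likelihood, TMM, filterByExpr with a minimum of 10, two-sided) in R 4.3.3, Benjamini-Hochberg adjusted over all genes at 0.05. SE was obtained by dividing the fold change (log2) by the root of F. With 2 tumors the p-values measure only the spread between these samples. The script was tested on simulated data. DESeq2 1.42.0, RLE scaling, no filter, a replicate block, other resolutions, doublets kept, only the compared classes, and leaving out each library were alternatives. The design text gives 2 tumors with both fractions from each, so libraries of a number are paired; their deviations from the group means correlated at 0.699 over whole libraries, 0.644 in fibroblast-like and 0.794 in ductal-like cells. The genes, lists and rules were chosen with earlier results of these data known. The text names all 9 genes, pathway genes that passed (at most 5 with the largest change per direction), and the genes of highest likeness.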

Additional observations from a re-analysis of the deposited data

Results flagged for a closer look

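For 7 results the ratio lay above 1 in 1 tumor and below 1 in the other, with both 95% counting intervals excluding 1; opposite directions whose intervals include 1, such as Stra6 between whole libraries (log2 ratios of -0.17 in tumor 1 and 1.42 in tumor 2), are not listed. The value given is the log2 ratio in tumor 2 minus that in tumor 1, and none of these differences between tumors was tested. Between sorted CAF and all live libraries, the log2 ratio of Dhrs3 was -0.19 in tumor 1 and 0.76 in tumor 2, a difference of 0.95, and that of Crabp2 was -1.04 in tumor 1 and 4.96 in tumor 2, a difference of 6.0. Between mesothelial-like and fibroblast-like cells, Aldh1a2 had 1.62 in tumor 1 and -1.45 in tumor 2, a difference of -3.07. Crabp2 had -3.01 in tumor 1 and 2.61 in tumor 2 there, a difference of 5.62. Both Crabp2 results rest on few cells, which the counting intervals do not cover. A single cell held 21 of the 52 Crabp2 UMIs of all live 1, another held 35 of the 171 of sorted CAF 2, and all live 2 had 5. Mesothelial-like cells had 7 Crabp2 UMIs in tumor 1 and 58 in tumor 2, where the cell with 35 UMIs is among them.

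Stra6 was flagged in 2 comparisons that share the ductal-like sums. Between ductal-like and fibroblast-like cells its log2 ratio was -3.0 in tumor 1 and 2.53 in tumor 2, a difference of 5.53. Between mesothelial-like and ductal-like cells it was 1.97 in tumor 1 and -2.43 in tumor 2, a difference of -4.4. Between inflammatory-like and myofibroblast-like cells, Aldh1a1 had -1.17 in tumor 1 and 2.05 in tumor 2, a difference of 3.22. The myofibroblast-like sum mixes subclusters. Of its 228 cells in tumor 1, 190 were of the Gpnmb and Cpxm2 subcluster, at 178 CPM. The Arg1, Cspg4 and Tnc subcluster alone had 7.54 and 13.0 CPM in tumors 1 and 2. Both values lay below the 60.7 and 55.1 CPM of inflammatory-like cells.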

How the results depend on the processing

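Each result was recomputed under the alternatives. Of the counts of genes of the set past the threshold, 63 were equal to the value reported or within 1.5 times it, 14 rose and 1 fell. Most of the 63 are counts of 0 that stayed at 0, which say little about stability. Of the fold changes, 518 kept direction and call, 35 passed only under the alternative, 6 lost their call and 30 changed sign. Shares of fibroblast-like, ductal-like and mesothelial-like cells with a UMI were also read at 1500 UMIs per cell and unthinned. Of these, 68 left the 95% interval of the share at 3000 UMIs and 40 did not. Causes were not tested unless fewer samples or genes made the difference. For sorted CAF against all live fibroblast-like cells the count was 1 with the replicate block, beside 86 of 8660 genes. Leaving out a library leaves 1 sample in a group there. Mesothelial-like against fibroblast-like cells gave 1 each with DESeq2, no filter, the replicate block and only the 2 classes. Over all genes these fits called 260 of 11820, 626 of 19938, 326 of 12065 and 426 of 10676 genes. Ductal-like against fibroblast-like cells gave 7 with no filter, 6 with the replicate block, 5 with only the 2 classes and 3 to 6 leaving out a library. Over all genes the first 3 of these fits called 3596 of 19938, 3411 of 12065 and 2486 of 12592 genes. Leaving out a library called from 1500 of 11014 to 3215 of 13556 genes. Mesothelial-like against ductal-like cells gave 5 without sorted CAF 1, 5 without all live 1 and 6 without all live 2. Over all genes these called 1498 of 11008, 1381 of 12161 and 2276 of 13556 genes. Without sorted CAF 2 only 1 mesothelial-like sum is left. Inflammatory-like against myofibroblast-like cells gave 1 with DESeq2, and 2 each with no filter and with only the 2 classes. The counts over all genes were 49 of 9817, 218 of 19796 and 76 of 10089 genes.

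Counts over all genes moved by more than 1.5 times as follows. Between fractions, where 0 were called, whole libraries gave 476 with DESeq2; fibroblast-like cells gave 22 with DESeq2, 67 with no filter, 86 with the replicate block and up to 65 without 1 library; ductal-like cells gave 33 with DESeq2, 2 with no filter and 118 with the replicate block. For mesothelial-like against fibroblast-like cells (134), the counts were 260 with DESeq2, 626 with no filter, 326 with the replicate block, 426 with only the 2 classes, 85 with doublets kept, and 15 to 237 without 1 library. No filter gave 2666 for mesothelial-like against ductal-like cells (1758), and leaving out sorted CAF 2 gave 676 there and 1500 for ductal-like against fibroblast-like cells (2500). Between the fibroblast states (0) it was 49 with DESeq2, 218 with no filter, 39 with the replicate block, 76 with only the 2 classes, 8 at the finer resolution and 5 without all live 2. Of the 9 genes, the replicate block changed no call beyond those given beside the results. As a mean over cells, 13 class levels left the 95% Poisson interval of the summed UMIs, which covers counting error only, and 41 did not.

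Signs turned with the replicate block for Stra6 between fractions of ductal-like cells (-0.12), Aldh1a2 between mesothelial-like and fibroblast-like cells (0.16) and Aldh1a1 between the fibroblast states (0.17; 0.62 at the finer resolution). Leaving out a library turned the sign of whole-library log2 fold changes, whose ranges were -1.1 to 3.18 (Rbp4), -0.62 to 1.59 (Stra6), -0.33 to 0.69 (Dhrs3), -0.43 to 3.61 (Aldh1a2), -2.64 to 4.75 (Aldh1a3) and -0.39 to 3.71 (Crabp2). In fibroblast-like cells of the fractions they were -0.56 to 1.7 (Stra6), -0.3 to 0.1 (Dhrs3), -1.05 to 0.98 (Aldh1a1), -1.74 to 2.24 (Aldh1a2), -0.74 to 0.05 (Aldh1a3), -1.4 to 0.76 (Crabp2) and -0.81 to 10.74 (Cyp26a1). In ductal-like cells they were -0.66 to 1.14 (Rbp4), -3.35 to 3.01 (Stra6), -0.33 to 0.53 (Dhrs3) and -1.1 to 0.02 (Aldh1a1). Crabp2 between mesothelial-like and fibroblast-like cells ranged from -2.41 to 1.49. Leaving out 1 library of a fraction leaves 1 sample from the other tumor beside it. The low depth of all live 2 and the few UMIs of Crabp1, Crabp2 and Cyp26a1 limit what can be read from their zeros.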
